A study of Mus musculus with 8 samples.

Results

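The 200 stretches of the melanocyte genome with the most H3K27ac sequence were described, and those holding a SOX10 binding site were set beside those without one. H3K27ac regions called in both ChIP libraries were linked into a stretch wherever the gap between neighbours was at most 10 kb. The resulting 10798 stretches were ranked by the summed length of their regions, and the first 200 were kept. The members were thus chosen by their acetylated length, and every value taken from the H3K27ac libraries is given below as a description. SOX10 and H3K27me3 were not used in the choice.

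Chromatin came from melan-Ink4a-Arf-1 (melan-a), an immortalised pigment cell line derived from embryonic mouse skin, of genotype Cdkn2a tm1RDp/tm1RDp. SOX10, H3K27ac and H3K27me3 were each immunoprecipitated in 2 libraries, which the labels describe as independent experiments, and 2 input libraries served as background. No cells were treated. All libraries share the Cdkn2a mutation and a medium with 200 nM of the phorbol ester TPA and 200 pM cholera toxin, and the data describe 1 line in that medium. Positions are in the mm9 build. Genes were not assigned to the stretches, so the cell type label was not checked against melanocyte markers.

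H3K27ac marks active promoters and enhancers. Long runs of acetylated enhancers often lie around genes that define a cell type, where many transcription factors bind together. SOX10 belongs to the transcription factors of the neural crest, and melanocytes need it for survival and pigment gene expression. H3K27me3 is deposited by Polycomb repressive complex 2 and marks silent genes. The usual definition of a super-enhancer ranks linked enhancers by ChIP signal, which differs from the ranking by length used here.

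The H3K27ac libraries held 45583056 and 44416913 tags after removal of duplicates, and the SOX10 libraries held 6440395 and 8985699. The H3K27me3 libraries held 67060647 and 71987481. Before that removal the SOX10 libraries had 14170747 and 14592541 tags, of which 55% and 38% were duplicates, against 3% to 23% in the other ChIP libraries. Merging the lists of both replicates gave 36655 H3K27ac regions, 4159 SOX10 sites and 30517 H3K27me3 regions, here called consensus regions or sites. Fold enrichments and tag counts are the authors' own values for each peak, where the fold is the ratio of ChIP tags at the peak's summit to the input background. A set of 2 libraries against 2 cannot give a p below 0.333 in a two-sided exact permutation test, and regions of 1 library are not replicates, so no p-value is given. Intervals of shares are 95% Wilson intervals, which take in counting error and no other error.

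The 200 stretches held 6144 H3K27ac regions on 5.25 Mb of acetylated sequence, which was 20.6% of all such sequence. Their acetylated length ran from 15.3 to 109 kb with a median of 21.1 kb, and their span, from the first region to the last, ran from 21.0 to 240.4 kb with a median of 51.6 kb. A stretch had 11 to 132 regions, with a median of 27, and 17.9% to 90.7% of its span was acetylated. As called, the stretches were thus series of separate regions and not single broad ones, and the widest region of a stretch had a median of 2812 bp. The gaps between regions had a median of 386.5 bp. H3K27ac peaks were called with a distance of 50 and 51 bp between strands, and the part of peak calling in this split was not tested. The densest was rank 97 on chromosome 4 at 41563490 to 41587123, with 90.7% of its 23.6 kb acetylated. The sparsest was rank 136 on chromosome 8 at 129157415 to 129261586, with 17.9% of 104 kb. Rank 14 on chromosome 6 at 82946953 to 83006001 had the widest single region, of 14042 bp.

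**Figure D1:**
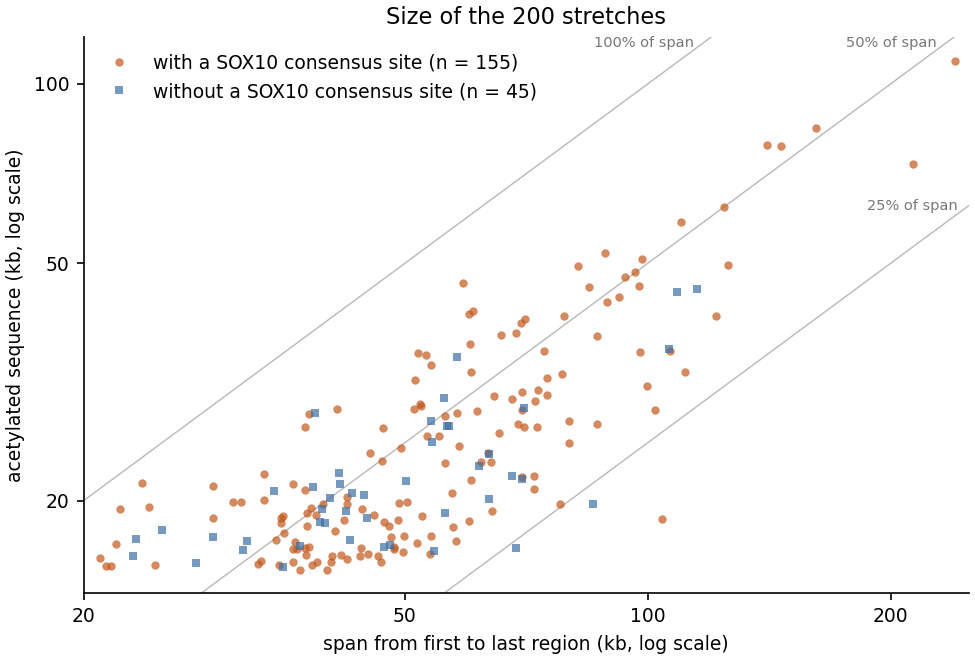
Acetylated length against span for the 200 stretches, both in kb on log scales, with circles for the 155 stretches with a SOX10 site and squares for the 45 without one. Grey lines mark 25%, 50% and 100% of the span, and both kinds of stretch lie over much of the same range, with the 10 largest all among those with a site.

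Within the 200, the H3K27ac replicates had similar covered lengths and tags. Across the 200, the sequence covered by peaks of replicate 2 followed that of replicate 1 with a Pearson r of 0.985 (Spearman rho of 0.936), and the tags did so with an r of 0.992. The highest fold in a stretch followed less closely, with an r of 0.583. These describe 200 regions in 2 libraries that share their input. The stretches were built from regions called in both replicates and chosen by the summed length of those regions. Agreement in length and tags was thus favoured in advance, and these correlations do not measure reproducibility independently of the choice. Ranking by replicate 1 alone gave a list of 200 that held 171 of the members (85.5%), and replicate 2 alone held 170 (85%). Each of these lists held all of the first 100. The limit of the list was not a break in the data. The last 3 members had 15484, 15313 and 15282 bp, with 0, 4 and 1 SOX10 sites, and the next 3 stretches had 15279, 15258 and 15110 bp, with 0, 2 and 0.

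The largest stretch covered 240.4 kb of chromosome 7 at 152122548 to 152362928, with 109 kb acetylated in 132 regions and 11139 and 10721 tags in H3K27ac replicates 1 and 2. It held 1 SOX10 site, with a fold of 13.4 ± 3.56 (SD, n = 2), and 5 H3K27me3 regions. Rank 2, on chromosome 8 at 124606705 to 124768425, had 84.4 kb in 93 regions and 1 SOX10 site of 27.01 ± 0.368 (SD, n = 2). These stretches thus held 1 site each despite their length. Rank 3, on chromosome 2 at 167503236 to 167643892, had 78.9 kb acetylated and 2 sites. Rank 4, on chromosome 11 at 117052221 to 117198484, had 78.5 kb and 4 sites, all of modest fold (5.98 to 7.33). Rank 5, on chromosome 5 at 139324892 to 139538018, had 73.4 kb, 2 sites and 10 H3K27me3 regions.

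Each of the other five among the 10 largest had at least 2 SOX10 sites. Rank 6, on chromosome 4 at 144519152 to 144643323, had 62.1 kb acetylated and 3 sites, the strongest of fold 23.7 ± 1.88 (SD, n = 2). Rank 7, on chromosome 6 at 146827516 to 146937418, had 58.7 kb in 33 regions and 3 sites, of which one reached 32.3 ± 2.64 (SD, n = 2). Rank 8, on chromosome 15 at 78971719 to 79060261, had 52.0 kb and 4 sites with folds of 7.75 to 9.77. Rank 9 lay on chromosome 8 at 129047506 to 129145956, had 50.8 kb and 2 sites, and was followed on the same chromosome by the members of rank 136 and rank 31. Rank 10, on chromosome 2 at 26340978 to 26466797, had 49.6 kb and 3 sites.

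A SOX10 consensus site lay within 155 of the 200 stretches (77.5%, Wilson interval 71.2 to 82.7), against 18.5% of all stretches. The 200 stretches ranked next, with a median acetylated length of 12.52 kb, had a site in 125 (62.5%, 55.6 to 68.9), and all 10598 others in 1843 (17.4%). The intervals of the 200 and of the next 200 did not overlap, but they hold counting error only and are no test. The median span was 51.6 kb in the 200 and 30.6 kb in the next 200. Single SOX10 libraries gave higher shares. A peak of replicate 1 lay within 169 (84.5%), against 23% of all stretches. A peak of replicate 2, which kept more tags after removal of duplicates, lay within 187 (93.5%), against 33%. With SOX10 peaks limited to a −log10 p times 10 of at least 100, the share in the 200 was 48.5%, against 6.81% of all stretches. A longer span leaves more room for a site, so densities are given further on.

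Among the 200, the share with a site was 90.0% for ranks 1 to 50, 74.0% for ranks 51 to 100, 72.0% for ranks 101 to 150 and 74.0% for ranks 151 to 200. It was 53.7% for ranks 401 to 1000, 38.2% for ranks 1001 to 2000, 19.7% for ranks 2001 to 5000 and 7.28% below that. In all, 45 stretches had no site, 66 had 1, 53 had 2, 24 had 3, 9 had 4 and 3 had 5. The median span was 44.8 kb for stretches without a site, 48.5 kb with 1, 49.8 kb with 2 and 68.8 kb with 3. The number of sites followed span and acetylated length loosely across the 200, with an r of 0.242 (rho 0.267) and 0.226 (rho 0.192).

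Per length, SOX10 was sparser in the 200 than in the smaller stretches as a whole. Against the smallest stretches this held per Mb of span but not per acetylated Mb. Their 295 sites made up 7.09% of all SOX10 sites. Counted by summits, so that a site hanging over the edge of a short stretch does not add to it, the 200 had 24.96 summits per Mb of span, against 26.8 in the next 200 and 33.0 in all other stretches. Per Mb of acetylated sequence they had 55.6 summits, against 69.3 in the next 200 and 82.6 in all others. Per 100 H3K27ac regions they had 4.75, against 5.45 and 5.49. The stretches below rank 5000, more numerous than all the rest, were sparser than the 200 on the last 2 measures, with 46.4 summits per acetylated Mb and 2.35 per 100 regions. Per Mb of span they had 26.6, slightly more than the 200. Within the 200 the density per acetylated Mb was 44.8 in ranks 1 to 50, 56.3 in ranks 51 to 100, 57.2 in ranks 101 to 150 and 82.0 in ranks 151 to 200. The stretches richest in acetylated sequence thus held a site most often and had the fewest summits per acetylated Mb of these 4 bins.

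**Figure D2:**
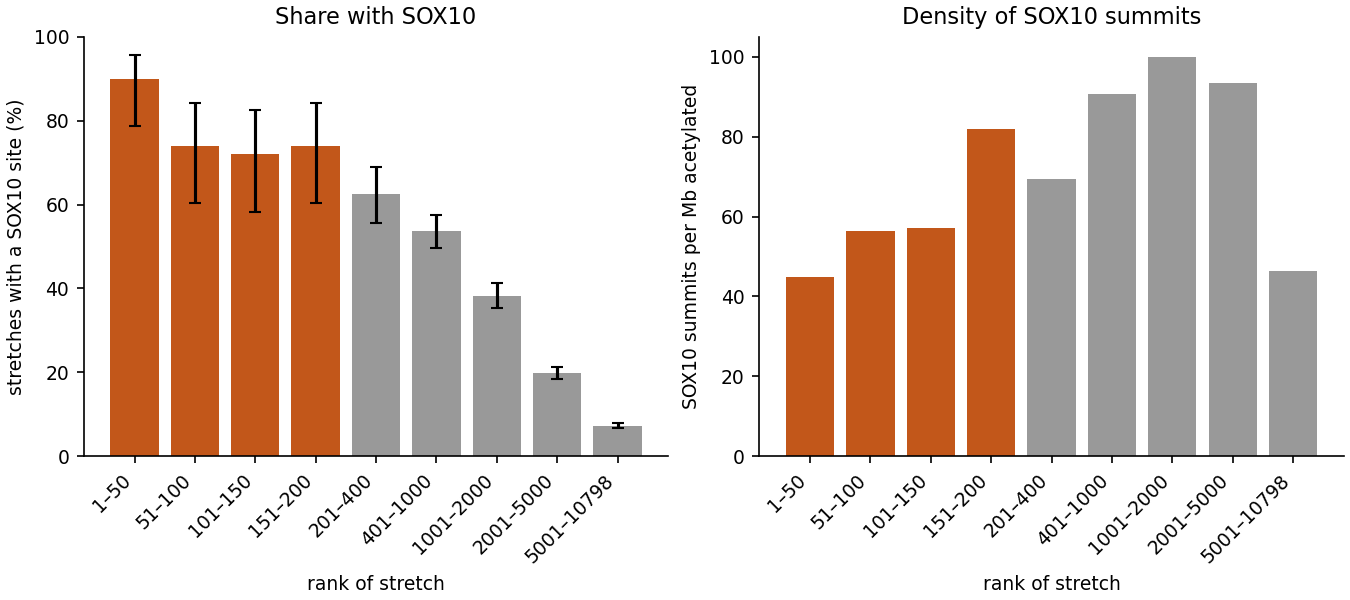
Left, share of stretches with a SOX10 consensus site (percent) by rank, with Wilson 95% intervals as error bars. Right, SOX10 summits per Mb of acetylated sequence by rank. The 4 orange bars are the 200 stretches and the grey bars all lower ranks: the share is 90.0% in the first bin and 7.28% in the last, while the density is 44.8 in the first bin, peaks at 100 in ranks 1001 to 2000 and is 46.4 in the last bin.

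The 3 stretches with 5 sites differed in how strong those were. Rank 13, on chromosome 3 at 95768779 to 95862374, had 47.5 kb acetylated and sites of fold 7.01 to 24.4. Rank 57, on chromosome 2 at 90318797 to 90388596, had 28.4 kb and sites of 9.24 to 18.9. Rank 95, on chromosome 4 at 99139690 to 99200042, had 21.7 kb and the strongest set, 13.6 to 26.7. Its 5 sites were spread over most of its 60.4 kb, and 2 of them touched no H3K27ac region. Ranks 4, 8, 24, 30, 40, 58 and 70 followed with 4 sites each. Of these, rank 30 lay on chromosome 3 at 79682109 to 79742335, rank 58 on chromosome 10 at 110942623 to 111044737 and rank 70 on chromosome 11 at 60087210 to 60160147.

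The SOX10 site of highest fold in the 200 lay in rank 40, on chromosome 1 at 81895751 to 82006996. Its fold was 40.8 and 34.2 in the replicates (37.5 ± 4.66, SD, n = 2), which placed it 24th of all 4159 sites. It covered 81909632 to 81910945, and its summit fell in a gap of 406 bp between H3K27ac regions. The next were in rank 7 (32.3 ± 2.64), rank 24 on chromosome 18 (32.2 ± 1.23), rank 78 on chromosome 14 at 20997770 to 21077596 (32.2 ± 6.76) and rank 158 on chromosome 2 at 52815003 to 52872820 (29.3 ± 4.58; SD, n = 2 for each). All of these summits also lay in gaps between H3K27ac regions, of 212 bp in rank 7, 317 bp in rank 24, 410 bp in rank 78 and 1240 bp in rank 158.

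**Figure D3:**
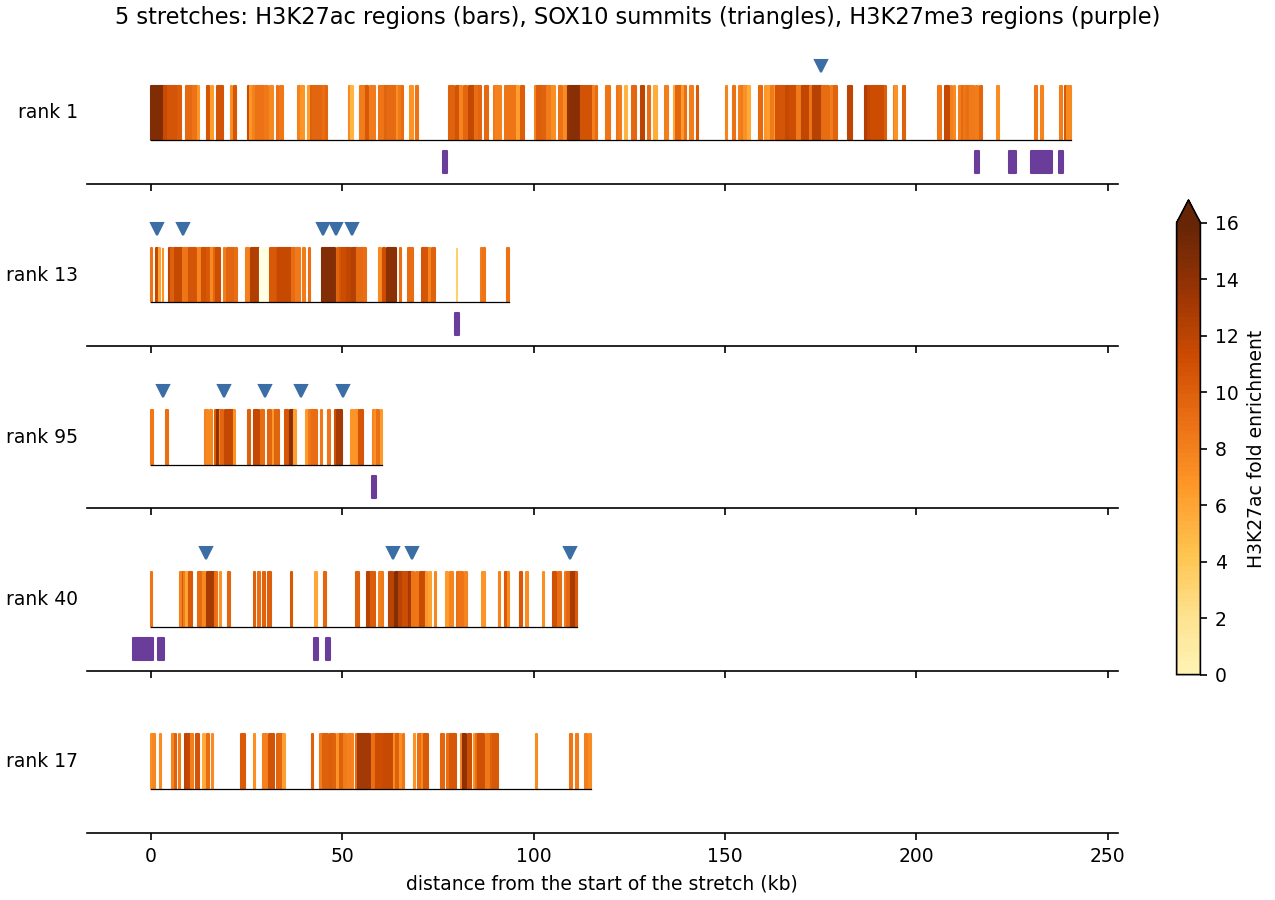
Maps of the stretches of ranks 1, 13, 95, 40 and 17 by distance from their start in kb, with H3K27ac consensus regions as bars shaded by mean fold enrichment, SOX10 summits as triangles and H3K27me3 consensus regions in purple. Rank 1 has 1 SOX10 site in 240.4 kb, ranks 13 and 95 have 5 each, rank 40 has 4, and rank 17 is the largest of the 200 without one.

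Of the 45 stretches without a consensus site, 36 (80.0%) did have SOX10 peaks in at least 1 library, against 47 of 75 such stretches in the next 200 (62.7%) and 23.1% of all stretches without a consensus site. Replicate 2 alone had a peak in 22, replicate 1 alone in 4, and in 10 both had peaks that did not overlap. That left 9 of the 200 (4.50%) with no SOX10 peak of either library, against 28 of the next 200 and 62.7% of all stretches. They were ranks 69, 107, 110, 123, 140, 142, 155, 169 and 191. Of these, 3 lay on chromosome 11, which held 18 of the 200 (9%) and 5 of the 45 without a consensus site. No concentration can be read from so few. Rank 69, on chromosome 15 at 77667066 to 77723410, was the largest, with 26.7 kb acetylated in 33 regions and a highest fold of 13.99 and 13.19 in the H3K27ac replicates. Rank 191, on chromosome 11 at 87973743 to 88001267, had 15.7 kb and a highest fold of 18.3 and 16.3. Rank 169, on chromosome 8 at 73155770 to 73224405, was 501 kb from the nearest site.

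The largest stretches without a consensus site were ranks 17, 18, 31, 37 and 49. Rank 17, on chromosome 18, had 45.3 kb acetylated over 115 kb, with 4343 and 4177 H3K27ac tags, and had 1 and 3 SOX10 peaks in replicates 1 and 2 that did not meet. Rank 18, on chromosome 11 at 117769630 to 117878422, had 44.8 kb and 1 peak, of replicate 2. Rank 31, on chromosome 8 at 129338522 to 129444929, had 36.0 kb and 2 and 3 peaks that did not meet. Rank 37, on chromosome 4 at 154473368 to 154531407, had 34.9 kb and 2 peaks, both of replicate 2, and lay 1330 kb from the nearest consensus site, the longest distance among the 45. Rank 49, on chromosome 11 at 55204145 to 55260016, had 29.7 kb and 3 and 1 peaks that did not meet. Over all 45 the median distance to the nearest consensus site was 126 kb. A site lay within 10 kb of 1 of them and within 50 kb of 10, and 25 had none within 100 kb.

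Stretches with a SOX10 site were a little larger than those without. The median acetylated length was 21.9 kb (quartiles 17.7 and 31.5) in the 155 with a site and 20.2 kb (17.2 and 24.0) in the 45 without. The median span was 52.4 kb with a site and 44.8 kb without, and the median number of regions was 27 and 26. Tags per stretch had medians of 2348 and 2389 in H3K27ac replicates 1 and 2 with a site, against 2061 and 2118 without. The acetylated share of the span had a median of 45.4% with a site and 46.1% without. The ranges of both kinds overlapped widely in each of these measures. The difference in median acetylated length, 1702 bp, ran from 371 bp with the stricter SOX10 peaks to 6603.5 bp with gaps of up to 20 kb.

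Enrichment per region was nearly alike in both kinds of stretch. The median fold of a stretch's regions had a median of 8.91 with a site and 8.75 without, and this difference changed sign, to -0.1925, when SOX10 replicate 2 alone defined the sites. The highest fold in a stretch had a median of 15.2 and 15.1 in replicates 1 and 2 with a site, against 13.9 and 13.8 without. The highest value seen in any of the 45 without a site was 21.9 in replicate 1 and 18.9 in replicate 2. Among those with a site, rank 12 on chromosome 17 at 87548013 to 87644554 reached 26.5 and 24.0, and rank 81 on chromosome 5 at 125614438 to 125677768 reached 19.9 and 25.7.

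Within the stretches, SOX10 sites lay at acetylated regions but often not on them. Of the 295 sites, 283 (95.9%, Wilson interval 93.0 to 97.7) shared at least 1 bp with an H3K27ac region, against 1929 of 2065 sites (93.4%) in other stretches. In a stretch of 1 region this sharing is fixed in advance, because the span is the region. Only 1774 of the 2065 sites met other stretches of 2 or more regions, so the 2 shares are not like for like. The summit itself was inside a region for 108 of the 295 sites (36.6%, 31.3 to 42.2), against 561 of the 2065 (27.2%). Many sites of smaller stretches reach over the edge of the span with their summit outside it. Among summits within the span, 108 of 292 in the 200 (37.0%, 31.7 to 42.7) and 561 of 1675 in other stretches (33.5%, 31.3 to 35.8) were in a region, and these intervals overlapped. A summit within the span of a stretch of 1 region is in that region by definition. Only 1589 of the 1675 summits lay in other stretches of 2 or more regions, and each of the 200 had at least 11 regions. These 2 shares are thus not like for like. The dip was narrow. At 500 bp on the left and right of the summit, 84.7% and 80.7% of positions were inside a region in the 200, against 57.0% and 57.5% in other stretches. For summits within the span it was 84.9% and 81.2% in the 200, against 61.3% and 61.4%.

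The dip was present in the peaks of each H3K27ac library. At the summit, peaks of replicates 1 and 2 covered 30.2% and 29.2% of the sites in the 200 (29.7 ± 0.719%, SD, n = 2), against 20.8% and 25.1% in other stretches (22.9 ± 3.05%). At 500 bp on the left they covered 78.0 ± 0.959% in the 200, against 54.1 ± 0.993% in other stretches (SD, n = 2). For 124 sites in the 200 (42.0%) both positions at 500 bp were covered and the summit was not, against 414 (20.05%) elsewhere, or 42.5% against 24.7% of the summits within the span. Both positions and the summit were covered for 86 sites in the 200 and 239 elsewhere. The 200 were chosen by acetylated length, which makes covered flanks more likely in advance. These shares therefore do not show a more frequent dip in the 200. The opposite, a summit covered and neither flank, was found for 3 sites in the 200 and 73 elsewhere. The wider acetylation of the 200 went on outward, and at 2000 bp 58.3% and 65.1% of positions were covered, against 22.3% and 22.6%.

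**Figure D4:**
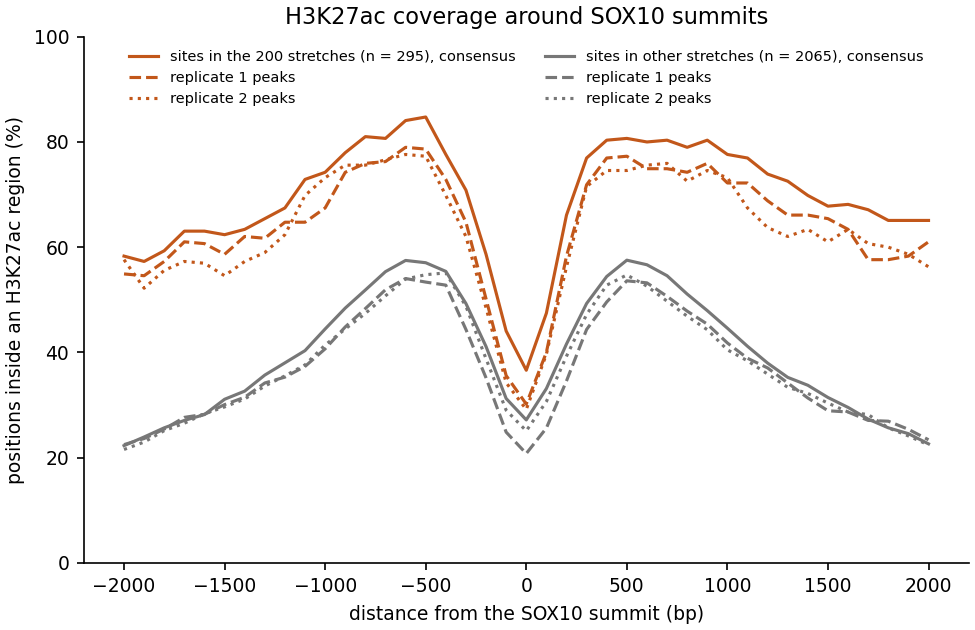
Share of positions inside an H3K27ac region (percent) by distance from the SOX10 summit in bp, for the 295 sites in the 200 stretches in orange and 2065 sites in other stretches in grey. Solid lines use consensus regions, which join the peaks of both replicates, dashed lines peaks of replicate 1 and dotted lines peaks of replicate 2. Each line has a minimum at the summit (36.6% in the 200 and 27.2% in other stretches for the solid lines) between shoulders at about 500 bp.

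The gaps that held SOX10 summits were short. Of the summits in the 200, 184 fell in gaps between regions, with a median gap of 430.5 bp, where all 5944 gaps had a median of 386.5 bp. Gaps of at most 1 kb held 148 of these summits (80.4%) but 18.9% of the sequence in gaps. Gaps over 5 kb held 4 (2.17%) and 33.2% of that sequence. H3K27ac peaks were called with tags shifted for a distance of 50 and 51 bp between strands, per the file headers, against 225 and 212 bp for SOX10, and the part of that setting in the narrow gaps was not tested.

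Sites were spread over the whole span. When each span was cut into 4 equal parts, these held 73, 74, 82 and 63 summits in order of position. In the 89 stretches with at least 2 sites, the 140 pairs of neighbours were a median of 16.05 kb apart, from 1.48 to 98.4 kb, and 23 pairs (16.4%) lay within 5 kb.

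The regions touched by SOX10 were wider and had a higher fold than the untouched ones. A site touched 535 of the 6144 regions in the 200 (8.71%), against 9.66% of all H3K27ac regions. The touched regions had a median fold of 10.4 and 10.3 in the H3K27ac replicates (10.4 ± 0.106, SD, n = 2), against 8.74 and 8.57 (8.66 ± 0.120) for the 5609 untouched ones. Their median width was 1074 bp, against 585 bp, and 19.4% were at least 2 kb wide, against 5.51%. A wide region has more sequence for a site to meet. Its fold is that of its highest peak in each replicate, which can rise with the number of peaks joined in it. No adjustment for width was made, and the part of width in the difference of fold was not tested. The untouched regions in stretches with SOX10 and the regions of stretches without SOX10 had the same medians, 8.74 and 8.57 in replicates 1 and 2.

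The same order was found stretch by stretch. In 131 of the 155 stretches with a site, the median fold of touched regions exceeded that of untouched ones in replicate 1, and in 131 it did so in replicate 2. Both replicates had this order in 118 stretches and neither in 11. The ratio of touched to untouched had a median of 1.20 in replicate 1 and 1.23 in replicate 2. Touched regions were also the wider in 143 of the 155, and the folds were not adjusted for width. The region of highest fold in each stretch was touched by 61 of the 295 sites (20.7%), while these regions held 7.74% of the acetylated sequence. The widest region was touched by 48 (16.3%), while the widest regions held 12.4%. A site counts as touching from 1 bp and can meet several regions. The shares of sites and of sequence are thus unlike measures, and no excess can be read from them.

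The SOX10 sites in the 200 had much the same fold as those in other stretches. Their median fold was 10.1 and 9.89 in SOX10 replicates 1 and 2, against 10.2 and 10.5 for sites in other stretches and 11.9 and 12.0 for sites in no stretch. The difference of the medians to other stretches, -0.45, was 0.24 when SOX10 replicate 2 alone defined the sites. The input background under the sites, recovered from the authors' tags and p-values and given relative to the genome-wide level, had a median of 2.22 in both replicates in the 200, against 1.90 in other stretches and 1.23 and 1.25 in no stretch. Tags had the reverse order of fold, with medians of 34 and 53 in replicates 1 and 2 in the 200, 29 and 44 in other stretches and 19 and 28 in no stretch. The sites also differed in width, with medians of 1375 bp in the 200, 1271 bp in other stretches and 1032 bp in no stretch, and the part of width and background in these orders was not tested. Of the 100 sites with the highest fold in the series, 6 lay in the 200, 57 in other stretches and 37 in no stretch, which was 2.03%, 2.76% and 2.06% of the sites of each set. Within the 200, sites with the summit between regions had a median fold of 11.1, against 8.78 where the summit was in a region. Their tags had the reverse order, with medians of 34 and 50 in replicates 1 and 2, against 36.5 and 55. Their input background was lower, with a median of 2.06 in both replicates, against 2.50 and 2.58. The part of background in this difference of fold was not tested.

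H3K27me3 met more of the 200 than of smaller stretches. A consensus region lay within 46 of the 200 (23.0%, Wilson interval 17.7 to 29.3), against 5.14% of all stretches, 29 of the 200 ranked next (14.5%) and 509 of all others (4.80%). Per length the 200 as a set had no such excess, but ranks 1 to 50 did. H3K27me3 covered 1.89% of the span in the 200 and 1.81% in all other stretches. The number of its regions per Mb of span was 10.6 in the 200 and 14.3 in all others. In ranks 1 to 50 it covered 3.46% of the span, with 18.1 regions per Mb. It covered 0.769% in ranks 51 to 100, 0.788% in ranks 101 to 150 and 1.13% in ranks 151 to 200. In the 175 members outside chromosome 6 it covered 1.11% of the span, and in the 25 on chromosome 6 it covered 8.33%. No value for other stretches outside chromosome 6 is given here. The share of stretches with an H3K27me3 region was 48.0% for ranks 1 to 50 and 16% for ranks 51 to 100. For ranks 101 to 150 it was 12.0%, and for ranks 151 to 200 it was 16%. It was 40 of 155 (25.8%, 19.6 to 33.2) in stretches with a SOX10 site and 6 of 45 (13.3%, 6.26 to 26.2) without, and these intervals overlapped. The stretches with a site also had the longer median span, 52.4 kb against 44.8 kb. The share in the 200 was 39.5% with gaps of up to 20 kb and 25 of 200 with gaps of up to 5 kb.

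Overlap of H3K27me3 with SOX10 was rare throughout. None of the 124 H3K27me3 regions in the 200 overlapped a SOX10 site, with an upper Wilson limit of 3.005%, against 3 of 724 in other stretches (0.414%) and 62 of all 30517 (0.203%), so the 200 could not be told from the rest. Of the 124, 88 (71.0%) shared sequence with an H3K27ac region, against 510 of the 724 in other stretches (70.4%). In a stretch of 1 region this sharing is fixed in advance, because the span is the region. Only 564 of the H3K27me3 regions in other stretches lay in stretches of 2 or more regions. Each of the 200 had at least 11 regions, so the 2 shares are not like for like. Seen from the other side, 128 of the 6144 H3K27ac regions in the 200 (2.08%) shared sequence with H3K27me3, against 584 of 30511 others (1.91%). The stretches with the most H3K27me3 sequence were rank 11 on chromosome 6 at 72129243 to 72211140, with 29612 bp in 12 regions, rank 15 on chromosome 6 at 91547184 to 91644611, with 26979 bp, and rank 16 on chromosome 6 at 42448945 to 42533566, with 21759 bp. Ranks 5 and 1 followed, with 13745 and 10262 bp.

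Chromosome 6 held more members than its share of stretches and also had a raised input. It held 25 of the 200 stretches but 6.44% of all stretches, so that 3.60% of its stretches were members, against 0 to 2.79% on the other numbered chromosomes, with a median of 1.81%. Members lay on 18 of the 19 numbered chromosomes, with none on chromosome 13 or X. Under the H3K27ac peaks of chromosome 6 the input background had a median of 1.399 in both replicates, against 1.01 to 1.08 in replicate 1 and 1.01 to 1.09 in replicate 2 on the other numbered chromosomes. The part of that background in the choice of members was not tested.

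The chromosome 6 members had lower fold and larger tag counts. The median fold of their regions had a median of 7.66, against 8.97 in the 175 other members, and their tags had medians of 2629 and 2695 in replicates 1 and 2, against 2206 and 2245. A SOX10 site lay in 22 of the 25 (88.0%, Wilson interval 70.0 to 95.8), against 133 of 175 (76.0%, 69.2 to 81.7). H3K27me3 lay in 10 (40%, 23.4 to 59.3), against 36 (20.6%, 15.2 to 27.2). The intervals overlapped in both comparisons, and no shares over all stretches of chromosome 6 are given here. Of the 221 kb of H3K27me3 in the 200, 105 kb was in these 25 stretches. The H3K27me3 lists were called with no local background, per the file headers, and the part of the raised input in these counts was not tested. On chromosome 6, 11.8% of the members' H3K27ac regions met H3K27me3, against 9.89% of other regions of that chromosome, and elsewhere 1.13% did, against 1.34%. The dip at SOX10 summits was as deep without chromosome 6, where 34.1% of summits in the 200 were covered, and 83.5% and 80.5% of positions at 500 bp on the left and right.

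**Figure D5:**
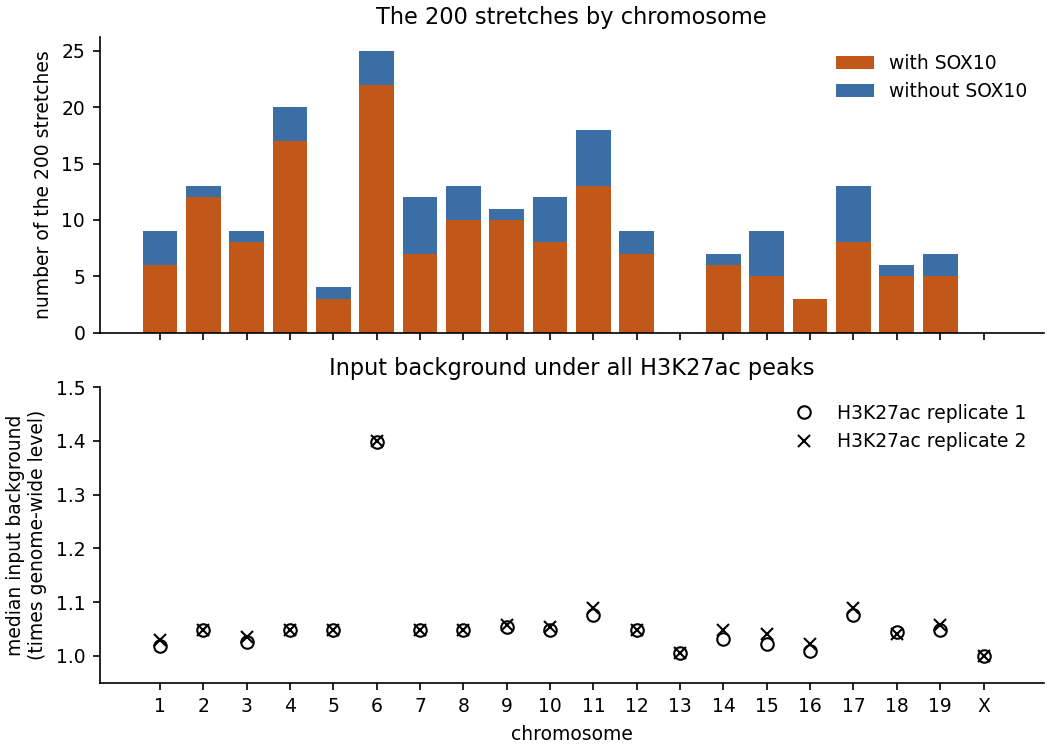
Top, number of the 200 stretches on each chromosome, split into those with and without a SOX10 site. Bottom, median input background under all H3K27ac peaks of each chromosome, in multiples of the genome-wide level, for H3K27ac replicates 1 and 2; the axis starts at 0.95. Chromosome 6 has the most stretches, 25, and the highest background, 1.399.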

How the data were processed

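ChIP peak lists of 6 libraries of 1 cell line were used, grouped by the antibody and replicate number in their labels, and 2 inputs entered as background. Peaks were called per library with MACS 1.4.2 at a p cutoff of 1e-05, per the file headers, on mm9, per the submitters' processing notes. No source used here names the aligner. SOX10 and H3K27ac peaks had the input in 1000 and 10000 bp around them as local background, and H3K27me3 peaks had no local background, per the file headers. The deposited tag counts are whole numbers, the deposited fold enrichment is a ratio to the background, the deposited p-values are −log10 values times 10, and the deposited FDR is in percent and was not used.

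Peaks of both replicates sharing at least 1 bp were merged and kept where both were present. The summit of a SOX10 site is that of its peak of higher fold, and a region's fold is the mean of the highest peak of each replicate. Input background was solved from each peak's tags and p, with p scores of 3000 or more left out. Of the H3K27ac peaks, 3.12% and 2.68% came out below the lowest background the caller allows, so it is approximate. Regions are not replicates, so no test was made, and alternatives were recomputed in place of one. Python 3.11.15, pandas 2.3.3 and scipy 1.17.1 were used. Merging, linking and overlap were checked on 20 simulated pairs of lists, and all 20 matched a base-by-base count. The members, the stretches named and the alternatives were chosen with earlier results of these data known. Stretches named are the 10 largest, the 10 with the most SOX10 sites, the 5 largest without one, the 5 with the site of highest fold, the 5 with the most H3K27me3 sequence and the 3 on each side of the limit; others were chosen after their values were seen. Genes and sequences were not analysed here.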

Additional observations from a re-analysis of the deposited data

How the results depend on the processing

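No paired analysis was possible because the results come from no test. Each of the 6 results below was recomputed with 1 choice changed at a time. The share of the 200 with a SOX10 site (77.5%) was 70.5% with gaps of at most 5 kb, 70.0% over the first 400 and 48.5% with SOX10 peaks of score (the authors' −log10 p times 10) 100 or more; leaving out 1 library gave 80.0% to 93.5%. The ratio of SOX10 sites per Mb of span in the 200 to that in other stretches (0.620) was 0.556 with 5 kb gaps, 0.668 with 20 kb gaps, 0.528 ranked by span, 0.576 over the first 100, 0.544 with H3K27ac scores of 100 or more, 0.868 with SOX10 scores of 100 or more and 0.756 by summits, and ran from 0.556 to 0.708 with 1 library left out.

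The median acetylated length of stretches with minus without a site (1702 bp) was 3314 bp with slightly wider gaps, 6603.5 bp with 20 kb gaps, 4779 bp ranked by span, 3824.5 bp over the first 100 and 371 bp with SOX10 scores of 100 or more, and ran from 1268 to 4587.5 bp with 1 library left out. The same difference in fold (0.1575) was 0.075, 0.07125 and 0.1025 with gaps of at most 5 kb, slightly over 10 kb and 20 kb, 0.21125 over the first 400, 0.27375 with 50% overlap between replicates, 0.08875 without chromosome 6 and 0.0125 with SOX10 scores of 100 or more. It changed sign to -0.04 with H3K27ac scores of 100 or more and ran from -0.1925, without SOX10 replicate 1, to 0.1675 with 1 library left out. The share with H3K27me3 (23.0%) was 13% (25 of 200) with 5 kb gaps and likewise with H3K27ac scores of 100 or more, 39.5% with 20 kb gaps, 29.5% ranked by span and 32.0% over the first 100, and ran from 29.0% to 39.5% with 1 library left out. The median fold of SOX10 sites in the 200 minus that in other stretches (-0.45) was 0.045 with 20 kb gaps, 0.1025 over the first 400 and -1.2225 with SOX10 scores of 100 or more, and ran from -0.4075 to 0.24, without SOX10 replicate 1, with 1 library left out. The causes were not tested. The sign of both fold differences therefore depended on the setting. The SOX10 libraries were the shallowest of the 6, with 6440395 and 8985699 tags after removal of duplicates. The part of depth and of duplicates in which sites were called was not tested.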
